A study of Mus musculus with 8 samples.

Results

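The 10 circadian clock genes described here were measured in mouse small intestine: the transcriptional repressors Nr1d1, Nr1d2, Per1, Per2, Per3 and Ciart, the output activators Dbp and Tef, and the core activators Arntl and Clock. They were taken by gene name from the deposited count table, which held each of the 10 names once among 55421 genes, and all 10 passed the filter on low counts. Bulk RNA sequencing of total RNA had been done on small intestine of wild-type (WT) mice kept in 7% oxygen for 7 days, with 4 samples from mice under Hypoxia alone (nitrate 0 mM) and 4 from mice supplemented with 4 mM nitrate in addition (Hypoxia+Nitrate). All 8 samples therefore come from hypoxic mice, and normal oxygen is not part of the comparison. The sources used here do not give the strain, age and sex of the mice, the segment of intestine, or the hour at which tissue was taken. Whether different samples are different animals is not labelled either, and p-values then reflect only sample-to-sample spread, which may be technical.

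The circadian clock is a feedback loop of transcription. A dimer of CLOCK and ARNTL (also called BMAL1) binds E-box sequences and activates the Per, Cry, Nr1d and Ciart genes, among others, as well as the output factors Dbp and Tef. PER proteins, with CRY partners, and CIART repress the dimer, while the nuclear receptors NR1D1 and NR1D2 (REV-ERB alpha and beta) repress Arntl through ROR elements. DBP and TEF are PAR bZIP factors that bind D-box elements. In tissues with a running clock, Dbp, Nr1d1 and the Per genes are high at a phase of the day when Arntl is low, and the opposite phase follows. In the intestine the clock is known to time nutrient transport and cell renewal.

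Promoter windows of the members were searched for the letters of known clock elements; no binding was measured. RefSeq promoters on GRCm38.p6, the genome of the deposited counts' build, matched 9 of the 10 members with 14 windows. Per2 was not matched. The 250 bases before each start were searched on both strands for the E-box CACGTG, the related CACGTT, the D-box letters TTATGTAA and TTACGTAA, the cyclic AMP response element TGACGTCA, and the ROR element. The E-box and CACGTT share their first letters, and no matches overlapped. CACGTG was found in 4 of the 14 member windows, those of Ciart, Per1 and Tef (both starts), and in 6.02% of all 32851 windows. CACGTT was found in the window of Nr1d1 alone among the members, and in 3.85% of all windows. TTATGTAA was found in the window of Per3, and in 0.819% of all windows. The other 3 motifs were in no member window, and in 0.113% (TTACGTAA), 1.55% (TGACGTCA) and 0.332% (ROR element) of all windows. Of the 6 windows with matches 5 are printed here 5′ to 3′ on the gene's strand, up to the first base of any annotated exon, with the matched letters in capitals, to show where the letters lie. The first window of Tef, with CACGTG 127 bases before that start, begins within an annotated exon and is not printed. They lie at chr3:95882252-95882478 (Ciart, minus strand), chr11:69098699-69098947 (Per1, plus strand), chr11:98775378-98775627 (Nr1d1, minus strand), chr15:81811164-81811413 (Tef, plus strand, its second start) and chr4:151044666-151044915 (Per3, minus strand).
Ciart: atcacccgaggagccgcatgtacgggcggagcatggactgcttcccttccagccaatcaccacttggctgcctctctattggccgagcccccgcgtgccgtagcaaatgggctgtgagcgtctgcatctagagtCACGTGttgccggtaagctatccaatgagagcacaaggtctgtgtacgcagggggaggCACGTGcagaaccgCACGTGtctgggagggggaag
Per1: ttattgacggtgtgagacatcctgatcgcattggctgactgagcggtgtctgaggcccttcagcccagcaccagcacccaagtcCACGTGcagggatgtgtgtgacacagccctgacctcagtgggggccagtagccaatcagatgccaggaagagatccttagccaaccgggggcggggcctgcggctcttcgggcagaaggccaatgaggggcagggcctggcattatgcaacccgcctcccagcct
Nr1d1: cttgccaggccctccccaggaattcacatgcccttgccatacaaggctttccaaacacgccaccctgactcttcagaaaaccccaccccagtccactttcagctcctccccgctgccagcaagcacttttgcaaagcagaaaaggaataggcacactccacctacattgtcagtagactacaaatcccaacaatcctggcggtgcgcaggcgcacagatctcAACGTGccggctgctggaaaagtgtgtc
Tef: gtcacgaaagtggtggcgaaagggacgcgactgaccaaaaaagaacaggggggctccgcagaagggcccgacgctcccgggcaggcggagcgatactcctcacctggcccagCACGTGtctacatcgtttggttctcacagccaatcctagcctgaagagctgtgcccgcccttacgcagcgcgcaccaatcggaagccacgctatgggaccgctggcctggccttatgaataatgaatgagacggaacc
Per3: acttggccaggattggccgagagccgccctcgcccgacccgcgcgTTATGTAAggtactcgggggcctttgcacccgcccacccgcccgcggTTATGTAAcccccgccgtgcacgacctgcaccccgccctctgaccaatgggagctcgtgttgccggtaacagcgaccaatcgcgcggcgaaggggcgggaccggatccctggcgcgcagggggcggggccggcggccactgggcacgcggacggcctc
The 3 E-boxes of Ciart begin 116, 58 and 44 bases before its start, that of Per1 166 bases and that of the printed Tef window 138 bases before. In Nr1d1 the match is on the other strand and reads AACGTG, 28 bases before the start. This RefSeq start lies outside the gene as annotated in GENCODE M21 (98767932 to 98775333, minus strand). Both Per3 matches, 205 and 158 bases before the start, have the form TTATGTAA. These matches describe the letters in these windows only.

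The libraries differed between the groups before any single gene was considered. Total counts ran from 5345377 to 21835865 in Hypoxia and from 8662279 to 63943036 in Hypoxia+Nitrate. A background density per kb was taken from receptor genes of smell, pheromone and trace-amine sensing, which were assumed to be silent in gut. It amounted to 39.1% to 63.7% of the nuclear protein-coding counts of the Hypoxia libraries and 2.74% to 23.2% of those of the nitrate libraries. Hypoxia+Nitrate 1 and 4 stood apart from all other libraries, with background shares of 2.86% and 2.74% and mitochondrial shares of 64.0% and 49.3% of all counts. Hypoxia 1 and 2 had the largest shares of a ribosomal DNA locus (75.7% and 73.7%). Markers of intestinal epithelium moved with the groups: all 12 rose, and their summed level was 65.1 to 587 CPM (read counts scaled to a common library total, after edgeR's TMM adjustment) in Hypoxia and 796 to 32900 CPM in Hypoxia+Nitrate. None of the 12 was at 0 in a whole group, and the Hypoxia sums were 1.83 to 19.5 times background, so the labelled tissue was weakly marked in some Hypoxia libraries. All 6 smooth muscle markers rose as well (63.1 to 426 CPM against 1340 to 2950 CPM). These calls changed with the libraries used. Without Hypoxia 1, 0 of the 12 and 0 of the 6 passed in edgeR (12 and 6 at an unadjusted p under 0.05). Without Hypoxia 3, 3 and 1 passed, and without Hypoxia 4, 1 and 0 (12 and 6 unadjusted). Calls also fell over all genes, of which 4163 of 35431 were higher with all libraries. It was 676 of 34746 without Hypoxia 1, 1580 of 38001 without Hypoxia 3 and 1631 of 38580 without Hypoxia 4. Without Hypoxia 1 the median log2 fold changes were 5.25 (epithelium) and 2.83 (muscle), against 5.09 and 2.63 with all libraries. Without Hypoxia+Nitrate 1 and 4, 1 epithelial marker passed, with a median log2 fold change of 1.66 in place of 5.09, and all 6 muscle markers did. Enteric neuron and glia markers (1 of 8 higher; 54.1 to 78.3 CPM against 58.3 to 164 CPM), immune markers (2 of 8 higher, 1 lower; 57.5 to 81.6 CPM against 89.8 to 272 CPM) and markers of vessels and fibroblasts (1 of 6 lower; 75.0 to 82.1 CPM against 67.4 to 97.5 CPM) mostly did not pass. The RNA step of the protocol speaks of islets. Islet markers summed to 19.9 to 22.0 CPM in Hypoxia and 8.38 to 35.4 CPM in Hypoxia+Nitrate, and exocrine pancreas markers to 11.6 to 14.4 CPM and 2.23 to 5.76 CPM, with 1 exocrine gene at 0 in a whole group. The part of these differences in the clock gene results was not tested, and in bulk tissue fewer cells of a type and less RNA per cell cannot be told apart.

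Nitrate was compared with no nitrate under hypoxia to ask how clock genes differ between the groups. Of the 10 members 5 rose in Hypoxia+Nitrate, Nr1d1, Dbp, Tef, Nr1d2 and Per1, against a background of 11.7% of the 35431 genes tested (18.5% of nuclear protein-coding genes). None of the 10 fell, by edgeR's quasi-likelihood test at an adjusted p of 0.05, against 12.7% of all genes (9.75% of nuclear protein-coding genes); 0 were lower at an unadjusted p under 0.05, and 0 by DESeq2 or limma-voom. The members' median log2 fold change was 1.35, against a median of −0.58 over all genes tested and 0.04 over nuclear protein-coding genes. Groups did not overlap, with Hypoxia+Nitrate higher, for 5 members (Nr1d1, Dbp, Tef, Per1 and Clock), against 12% of all genes, and for 0 with Hypoxia+Nitrate lower, against 28.8%. In either direction 24.4% of all genes were called. The size of these differences depended on scaling and on which libraries were used. With library size alone in place of TMM the members' median was 0.48, that of all genes −1.07, and 0 of the members were called (0 also at an unadjusted p under 0.05 in that edgeR fit), where 0.686% of all genes were higher and 4.39% lower.

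The number of members called changed with the setting. With RLE size factors 3 were higher against 9.14% of genes higher and 17% lower, and with upper-quartile factors 3 against 8.03% and 15.3%. DESeq2 called 5 higher against 13.1% and 28.3%, and limma-voom 5 against 10.9% and 33.7%. Nuclear protein-coding genes tested alone gave 3 against 15.1% and 14.4%. Without Hypoxia+Nitrate 1 and 4, 3 members were higher (Nr1d1, Dbp and Ciart) against 10.1% and 17.6%, and without Hypoxia 1 and 2, 0 against 1.51% and 8.74% (5 at an unadjusted p under 0.05 in edgeR). No member was called lower in any of the 21 alternatives.

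Among the repressors, Nr1d1 rose most in the main fit, and its fold change there was the largest of the 10 genes. Dbp was larger without Hypoxia+Nitrate 1 and 4 (1.45 against 1.37) and without Hypoxia+Nitrate 1 alone (2.70 against 2.64). After background subtraction Dbp (5.07), Tef (3.45) and Nr1d2 (3.03) were above Nr1d1 (1.86). With the background covariate Ciart (1.13), Per3 (0.82), Dbp (0.61), Tef (0.39) and Arntl (0.26) were above Nr1d1 (0.20). Nr1d1 encodes REV-ERB alpha, a heme-binding nuclear receptor that represses Arntl (ENSMUSG00000020889, chromosome 11, 98767932 to 98775333, minus strand). It held 10.9, 12.4, 8.70 and 6.20 CPM in Hypoxia 1 to 4 and 202, 25.5, 21.2 and 131 CPM in Hypoxia+Nitrate 1 to 4. All nitrate libraries lay above all others, and Hypoxia+Nitrate 1 and 4 lay far above Hypoxia+Nitrate 2 and 3. Nr1d1 rose by 3.31 on the log2 scale (SE 0.77, edgeR adjusted p = 0.0139, n = 4 per group). Without Hypoxia+Nitrate 1 and 4 it was 1.37 (SE 0.35, edgeR adjusted p = 0.0243). With library size alone it was 1.62 and did not pass (edgeR adjusted p = 0.364). Without Hypoxia 1 it did not pass (3.37, edgeR adjusted p = 0.0579), nor without Hypoxia 4 (3.31, edgeR adjusted p = 0.0516). Of its exonic length 91.5% is free of other genes' exons.

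Nr1d2, which encodes the paralog REV-ERB beta (ENSMUSG00000021775, chromosome 14, 18204054 to 18239127, minus strand), rose less and with overlapping groups. Its levels were 11.6, 6.40, 5.06 and 6.69 CPM in Hypoxia 1 to 4 and 43.8, 11.3, 10.7 and 41.1 CPM in Hypoxia+Nitrate 1 to 4. The nitrate libraries 2 and 3 were just below Hypoxia 1 and above the other Hypoxia libraries. Nr1d2 rose by 1.84 on the log2 scale (SE 0.57, edgeR adjusted p = 0.0390). It was 0.65 (SE 0.39, edgeR adjusted p = 0.232) without Hypoxia+Nitrate 1 and 4, and it lost its call when any 1 Hypoxia library, or Hypoxia+Nitrate 1 or 4, was left out (edgeR adjusted p from 0.0698 to 0.121). Nr1d2 also did not pass with RLE (edgeR adjusted p = 0.0708) or upper-quartile factors (0.0781), and was at 0.62 with library size alone.

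The 3 Period genes, whose proteins form the repressing complex with the cryptochromes, differed from each other. Per1 (ENSMUSG00000020893, chromosome 11, 69095217 to 69109960, plus strand), the Period gene that also responds quickly to hormones and cyclic AMP, stood at 12.8, 14.98, 7.80 and 11.98 CPM in Hypoxia and 93.0, 20.3, 19.2 and 35.7 CPM in Hypoxia+Nitrate. Its groups did not overlap, and Hypoxia+Nitrate 1 stood well above the other 7 libraries. Per1 rose by 1.82 on the log2 scale (SE 0.57, edgeR adjusted p = 0.0400), or 0.81 (SE 0.35, edgeR adjusted p = 0.109) without Hypoxia+Nitrate 1 and 4. Leaving out any single Hypoxia library, or Hypoxia+Nitrate 1 or 4, ended the call of Per1 (edgeR adjusted p from 0.0545 to 0.124; without Hypoxia+Nitrate 1 the log2 fold change was 1.08). It did not pass with RLE (edgeR adjusted p = 0.0691) or upper-quartile factors (0.0789), and was at 0.63 with library size alone.

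Per2 (ENSMUSG00000055866, chromosome 1, 91415982 to 91459324, minus strand) held 7.08, 10.6, 12.8 and 8.97 CPM in Hypoxia and 22.2, 9.78, 16.7 and 23.8 CPM in Hypoxia+Nitrate. Only Hypoxia+Nitrate 2 fell within the Hypoxia range. A log2 fold change of 0.88 (SE 0.41, edgeR adjusted p = 0.134) did not pass, though it did when Hypoxia+Nitrate 2 was left out (1.12, edgeR adjusted p = 0.0365). Per3 (ENSMUSG00000028957, chromosome 4, 151003652 to 151044665, minus strand), with levels of 24.5, 41.0, 43.8 and 21.0 CPM in Hypoxia and 26.7, 34.9, 71.0 and 46.7 CPM in Hypoxia+Nitrate, did not pass either (0.46, SE 0.47, edgeR adjusted p = 0.462). In Per3 the nitrate libraries 1 and 2 lay inside the Hypoxia range, and Hypoxia+Nitrate 3, not 1 or 4, was highest.

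Ciart, also named Chrono, encodes a further repressor of the CLOCK dimer (ENSMUSG00000038550, chromosome 3, 95878503 to 95882251, minus strand). Its levels were 5.54, 9.24, 6.32 and 9.76 CPM in Hypoxia and 17.8, 14.2, 17.0 and 3.85 CPM in Hypoxia+Nitrate. Hypoxia+Nitrate 1 to 3 were above every Hypoxia library, while Hypoxia+Nitrate 4, one of the libraries where Nr1d1 and Dbp were highest, was below every one. Its log2 fold change did not pass (0.78, SE 0.50, edgeR adjusted p = 0.257). Without Hypoxia+Nitrate 4 it was 1.08 (edgeR adjusted p = 0.0888), and without Hypoxia+Nitrate 1 and 4 it passed (1.10, SE 0.36, edgeR adjusted p = 0.0499).

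The output activators rose. Dbp, the D-box binding factor whose own transcript is among the most strongly rhythmic in many tissues (ENSMUSG00000059824, chromosome 7, 45705088 to 45710203, plus strand), held 2.87, 3.13, 2.64 and 3.43 CPM in Hypoxia 1 to 4 and 27.0, 11.1, 4.74 and 42.5 CPM in Hypoxia+Nitrate 1 to 4. The Hypoxia libraries lay close together, and every nitrate library was higher, Hypoxia+Nitrate 3 by the smallest margin. The log2 fold change of Dbp was 2.82 (SE 0.63, edgeR adjusted p = 0.0124). It stayed past the threshold without Hypoxia+Nitrate 1 and 4 (1.45, SE 0.45, edgeR adjusted p = 0.0429), and it did not pass without Hypoxia 1 (2.79, edgeR adjusted p = 0.0553) or with library size alone (1.34, edgeR adjusted p = 0.547). Exons of other genes cover part of Dbp, leaving 82.0% of its exonic length free.

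Tef, thyrotroph embryonic factor (ENSMUSG00000022389, chromosome 15, 81802421 to 81826863, plus strand), held 18.2, 11.6, 11.5 and 7.77 CPM in Hypoxia and 80.5, 27.1, 22.5 and 92.2 CPM in Hypoxia+Nitrate. Its groups did not overlap, and the same 2 nitrate libraries, 1 and 4, were highest. Tef rose by 2.18 on the log2 scale (SE 0.57, edgeR adjusted p = 0.0211), and 1.10 (SE 0.37, edgeR adjusted p = 0.0540) without those libraries. Tef lost its call when any 1 Hypoxia library was left out (edgeR adjusted p from 0.0570 to 0.0686), and was at 0.91 (edgeR adjusted p = 0.637) with library size alone.

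The core activators did not pass. Arntl (ENSMUSG00000055116, chromosome 7, 113207465 to 113314126, plus strand) held 15.4, 16.2, 17.1 and 24.3 CPM in Hypoxia and 13.4, 17.5, 22.5 and 16.7 CPM in Hypoxia+Nitrate. The groups were interleaved, with the highest value in Hypoxia 4 and the lowest in Hypoxia+Nitrate 1. For Arntl the log2 fold change was −0.06 (SE 0.37, edgeR adjusted p = 0.918). Clock (ENSMUSG00000029238, chromosome 5, 76209868 to 76304792, minus strand) held 18.4, 19.5, 25.0 and 21.0 CPM in Hypoxia and 46.3, 25.7, 29.2 and 49.7 CPM in Hypoxia+Nitrate. Every nitrate library was above every Hypoxia library in Clock, by a small margin, yet its log2 fold change did not pass (0.85, SE 0.40, edgeR adjusted p = 0.132).

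**Figure D1:**
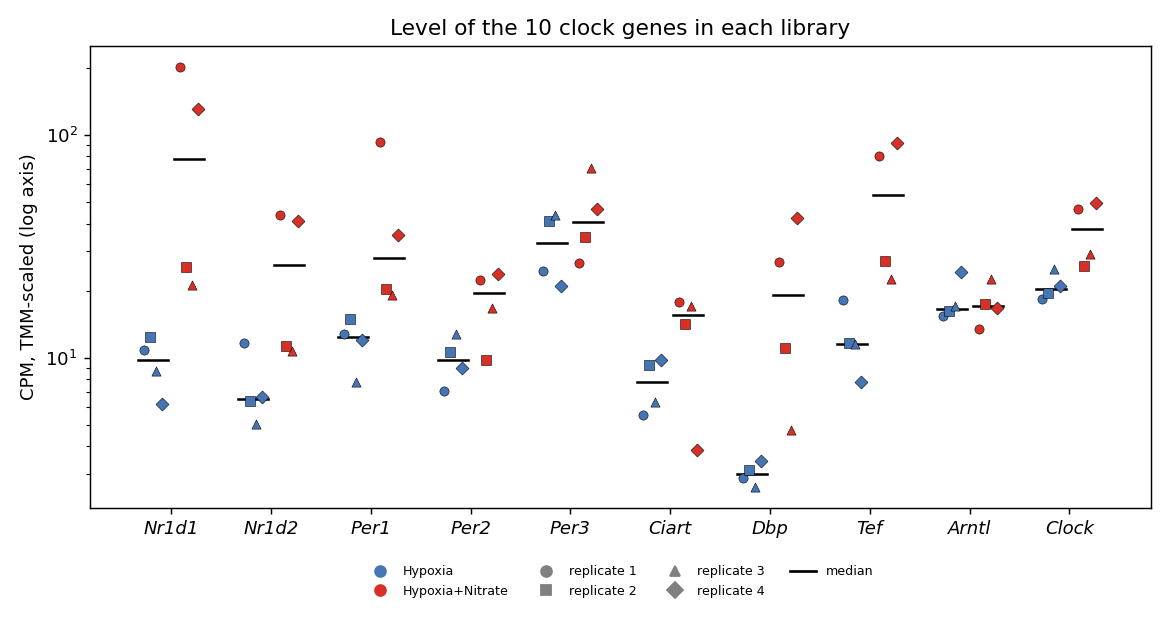
TMM-scaled CPM (log axis) of the 10 clock genes in each of the 8 libraries; colours give the group, symbols the replicate number and bars the group median. Nr1d1, Dbp, Tef and Per1 are higher in all 4 nitrate libraries, with replicates 1 and 4 highest, while Arntl and Per3 overlap.

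**Figure D2:**
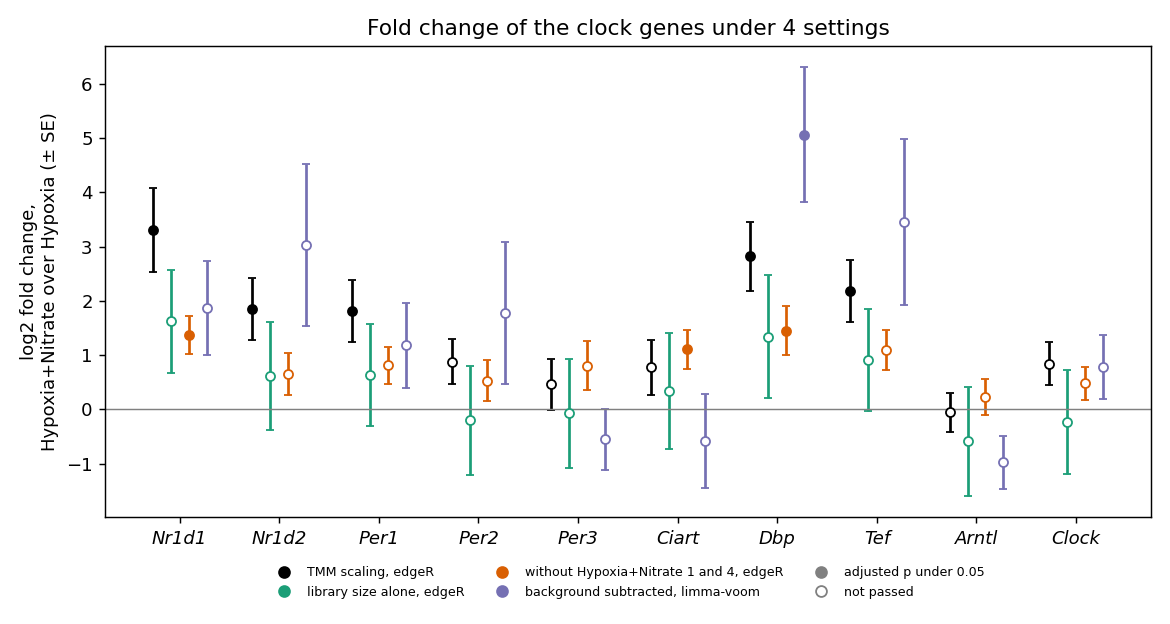
Log2 fold change of Hypoxia+Nitrate over Hypoxia with its SE for each clock gene in 4 settings; filled points passed an adjusted p of 0.05. Nr1d1 is at 3.31 with TMM, 1.62 with library size alone, 1.37 without Hypoxia+Nitrate 1 and 4, and 1.86 after background subtraction, and Arntl stays near or below 0.25 in all 4.

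Several Hypoxia counts were close to the background. A gene's count was set against the count that the receptor genes' density would give over its own exonic length free of other genes, with an exact 95% Poisson interval that covers counting error only. Dbp had 43, 43, 50 and 57 counts in Hypoxia 1 to 4, where 44.5, 29.5, 50.8 and 41.9 would come from background. The interval included the background in Hypoxia 1 and 3, so Dbp transcript was not detectable above background there at this depth. In Hypoxia+Nitrate, Dbp had 380, 195, 87 and 872 counts, or 52.3, 6.27, 2.99 and 74.8 times the background. Nr1d2 (2 of 4 Hypoxia libraries above background), Tef (3 of 4), Clock (3 of 4) and Per2 (3 of 4) were also near it, whereas Nr1d1, Per1, Per3, Arntl and Ciart exceeded it in all 4 Hypoxia libraries. Summed over the Hypoxia libraries, counts were 1.16 times background for Dbp, 1.28 for Nr1d2, 1.47 for Clock, 1.49 for Tef, 1.62 for Per2, 1.95 for Per1, 2.32 for Arntl, 3.15 for Nr1d1, 3.21 for Ciart and 3.23 for Per3. All 10 genes exceeded background in all 4 nitrate libraries. For Dbp, Nr1d2, Clock, Tef, Per2 and Per1 the background made up more of the Hypoxia counts than the remainder did, so their fold changes on the CPM scale start from such values.

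**Figure D3:**
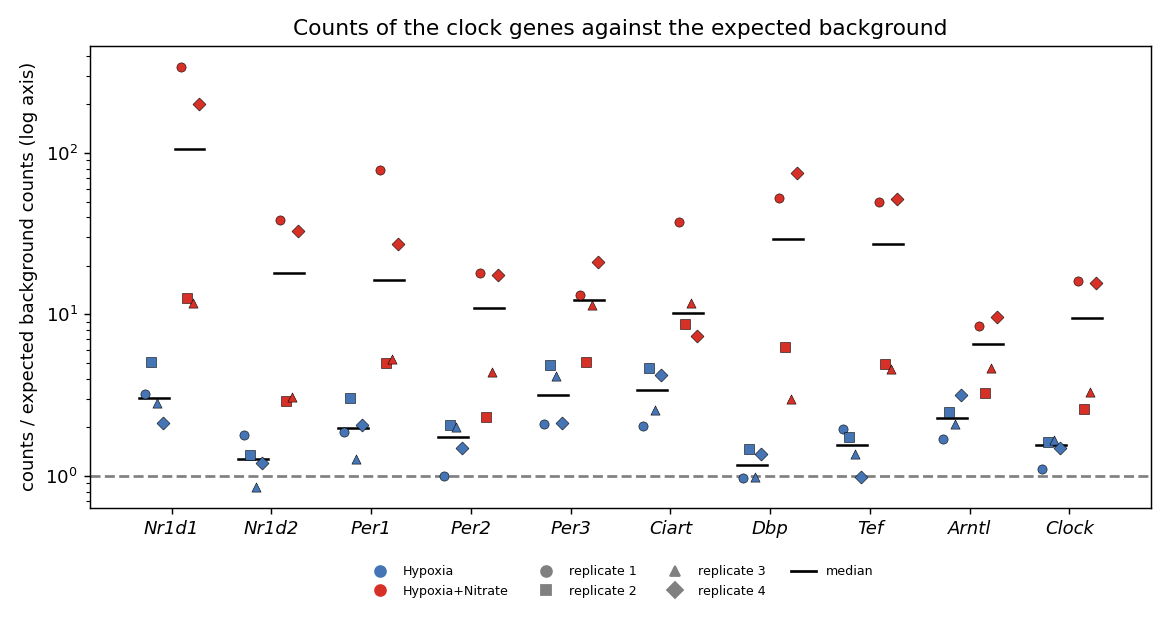
Counts of each clock gene divided by the counts expected from background in the same library (log axis); the dashed line marks a ratio of 1, colours the group, symbols the replicate and bars the group median. Dbp and Nr1d2 have the Hypoxia medians closest to 1, followed by Tef and Clock, and all genes are above 2 in the nitrate libraries.

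After subtraction of that background, Dbp alone of the 10 members passed in limma-voom, with a log2 fold change of 5.07 (SE 1.24, limma-voom adjusted p = 0.0244), where 4.24% of 14996 genes were higher and 9.23% lower (2 members were higher at an unadjusted p under 0.05). Negative net counts were set to 0, as for Dbp in Hypoxia 1 and 3, so the size of this value depends on the offset that limma-voom adds and is neither an estimate of the fold nor a bound. The same limit holds for Tef (set to 0 in Hypoxia 4), Nr1d2 (in Hypoxia 3) and Per2 (in Hypoxia 1). Tef (3.45, SE 1.53), Nr1d2 (3.03, SE 1.49), Nr1d1 (1.86, SE 0.86), Per2 (1.78, SE 1.32), Per1 (1.18, SE 0.78) and Clock (0.78, SE 0.59) had positive values that did not pass, with wider errors than before. Per3 (−0.55, SE 0.56), Ciart (−0.58, SE 0.87) and Arntl (−0.98, SE 0.49, limma-voom adjusted p = 0.197) had negative values that did not pass. With the background share as a covariate in edgeR, none of the members passed (0 also at an unadjusted p under 0.05), Dbp was at 0.61 and Nr1d1 at 0.20, where 0.466% of all genes were higher and 0.358% lower. The background share does not overlap between the groups, so that covariate and nitrate cannot be told apart.

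Each gene's net count was also taken as a share of the net nuclear protein-coding counts of its library, on the scale of CPM (net CPM). On this scale Dbp and Arntl lay on opposite sides. Dbp stood at −1.54, 7.88, −0.51 and 8.46 net CPM in Hypoxia 1 to 4 and at 40.4, 42.7, 13.0 and 55.7 in Hypoxia+Nitrate 1 to 4, where a negative value means fewer counts than the background would give. Each nitrate library was above each Hypoxia library. For Dbp, nitrate libraries 1 and 2 were close on this scale, whereas in CPM library 1 was well above library 2. The TMM factors of these libraries, which net CPM leaves out, were 0.2202 and 1.651. The part of the subtraction in this change was not tested. Arntl stood at 99.7, 76.9, 106 and 154 net CPM in Hypoxia and at 18.1, 55.2, 73.1 and 19.8 in Hypoxia+Nitrate, with every nitrate library below every Hypoxia library. Per3 had medians of 233 in Hypoxia and 93.6 in Hypoxia+Nitrate, with overlap, and Nr1d1 medians of 73.5 and 140, with overlap. Per1 (69.1 and 69.2) and Clock (62.2 and 69.3) had nearly equal medians. In TMM-scaled CPM the groups of Arntl were interleaved, with a log2 fold change of −0.06. The share of all genes without overlap in net CPM was not computed. These net values are a description and were not tested.

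**Figure D4:**
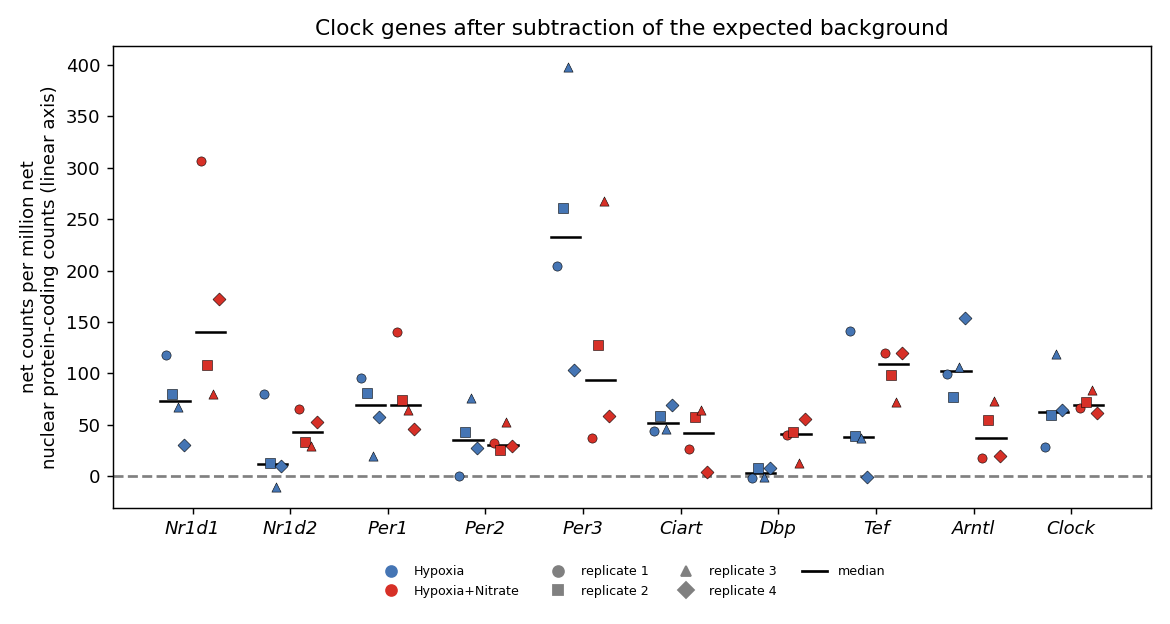
Net CPM, relative to net nuclear protein-coding counts (linear axis), of each clock gene after subtraction of expected background; colours give the group, symbols the replicate and bars the median, and the dashed line is 0. Dbp is higher in all 4 nitrate libraries, Arntl is lower in all 4, and the other 8 genes overlap. The scale has no TMM adjustment, and the share of all genes without overlap on it was not computed.

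Ratios within a library do not depend on scaling between libraries. Counts of Nr1d1 per kb were 1.89, 2.05, 1.36 and 0.68 times those of Arntl in Hypoxia 1 to 4 and 40.0, 3.89, 2.51 and 20.8 times in Hypoxia+Nitrate 1 to 4. The Dbp to Arntl ratio was 0.571, 0.591, 0.471 and 0.432 in Hypoxia and 6.14, 1.94, 0.641 and 7.78 in Hypoxia+Nitrate. For both genes the ratio was higher in every nitrate library, narrowly so in Hypoxia+Nitrate 3. The other 7 genes had overlapping ratios, with medians that went from 0.68 to 3.45 for Tef, from 0.884 to 2.19 for Per1 and from 1.61 to 1.87 for Per3. Net of background, the Nr1d1 to Arntl ratio overlapped by a small margin, with 3.16 in Hypoxia 1 and 2.92 in Hypoxia+Nitrate 3, whereas the Dbp ratio still did not overlap (at most 0.313 in Hypoxia and at least 0.544 in Hypoxia+Nitrate). The net Clock to Arntl ratio did not overlap either, with at most 0.613 in Hypoxia and at least 0.626 in Hypoxia+Nitrate. For ratios to Arntl, the share of all genes without overlap was not computed. In TMM-scaled CPM, 12% of all genes were higher without overlap. These ratios are a description and were not tested.

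Levels per kb of exonic length gave the order of the 10 genes. In Hypoxia the medians ran from 3.48 CPM per kb for Nr1d1, 3.44 for Ciart and 3.41 for Per3 down to 1.22 for Dbp and 1.21 for Nr1d2. In Hypoxia+Nitrate, Nr1d1 led with 27.8 CPM per kb, followed by Dbp (7.76), Tef (7.01) and Ciart (6.90), and Clock (2.75) and Arntl (2.28) were last. Arntl was in the fourth place in Hypoxia and the tenth in Hypoxia+Nitrate, and Dbp in the ninth and the second. These levels include the background, which made up most of the Hypoxia level of Dbp, Nr1d2, Clock, Tef, Per2 and Per1, so the lower Hypoxia places order values near it. In both groups the ranges over libraries of neighbours in the order overlapped. Within each of the 4 nitrate libraries, however, Nr1d1 was above its neighbour Dbp, with 7.54 against 1.93 CPM per kb in Hypoxia+Nitrate 3 and 71.8 against 11.0 in Hypoxia+Nitrate 1. The nitrate libraries also spread more: the highest value was 9.51 times the lowest for Nr1d1, 8.98 times for Dbp and 1.68 times for Arntl, against 2.01, 1.30 and 1.58 times in Hypoxia.

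Other genes of the core loop gave a mixed result. Of 12 further core genes, 3 rose, 1 fell and 8 did not pass, with a median log2 fold change of 1.23, where 11.7% of all genes were higher and 12.7% lower (18.5% and 9.75% of nuclear protein-coding genes). Cry1, the cryptochrome repressor, held 2.74, 2.76, 2.85 and 4.52 CPM in Hypoxia and 8.67, 5.12, 14.1 and 21.0 CPM in Hypoxia+Nitrate, a log2 fold change of 1.92 (SE 0.52, edgeR adjusted p = 0.0232). In Hypoxia Cry1 had 0.917 times the counts expected from background. Cry2 was at 2.09 (SE 0.72, edgeR adjusted p = 0.0567) and did not pass. Bhlhe40, which encodes the E-box repressor DEC1, rose by 2.25 (SE 0.64, edgeR adjusted p = 0.0291).

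Arntl2, the paralog of Arntl, was the gene of this list that fell. It held 5.34, 7.71, 5.90 and 10.2 CPM in Hypoxia and 0.995, 0.569, 0.272 and 1.27 CPM in Hypoxia+Nitrate, a log2 fold change of −3.22 (SE 0.66, edgeR adjusted p = 0.00952). All Hypoxia libraries were higher, but their counts were 1.21 times the background. Hypoxia+Nitrate 1 to 4 held 14, 10, 5 and 26 counts, or 0.831, 0.139, 0.0742 and 0.961 times the background. Arntl2 was thus not above background in any nitrate library. The part of the background in its fold change was not tested. Hypoxia counts of Bhlhe40 were 1.87 times it.

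Of 15 kinases, ubiquitin ligases and cofactors that act on clock proteins, 8 rose, 1 fell and 6 did not pass (median log2 fold change 1.84), beside the same 18.5% higher and 9.75% lower of nuclear protein-coding genes and 11.7% and 12.7% of all genes. Csnk2b, the regulatory subunit of casein kinase 2, was at 3.92 (SE 0.83), and Nono, an RNA-binding partner of PER proteins, at 3.52 (SE 0.74), with edgeR adjusted p-values of 0.0105 and 0.00993. Sfpq, which also binds PER complexes, was at 2.51, and Ncor1, the corepressor that NR1D1 recruits, at 2.37 (edgeR adjusted p = 0.0143 and 0.0155). Btrc, the ligase subunit that binds phosphorylated PER, fell by 1.26 on the log2 scale (SE 0.40, edgeR adjusted p = 0.0428). Btrc is named because it was the only lower gene, after its value was seen. Its Hypoxia counts were 1.33 times background, and those in Hypoxia+Nitrate 1 to 4 were 1.62, 1.25, 0.821 and 2.46 times it.

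Of 8 clock output genes 4 rose, none fell (0 at an unadjusted p under 0.05 in edgeR, 0 by DESeq2 and limma-voom) and 4 did not pass, with a median of 1.53. The shares of all genes called were again 11.7% higher and 12.7% lower, and of nuclear protein-coding genes 18.5% and 9.75%. Nampt, the rate-limiting enzyme of NAD salvage, was at 3.04 (SE 0.73, edgeR adjusted p = 0.0154), Por, the cytochrome P450 reductase, at 2.97 (SE 0.73, edgeR adjusted p = 0.0167), and Pim3, a kinase, at 2.30 (SE 0.58, edgeR adjusted p = 0.0182). Wee1, a cell cycle kinase with E-boxes, was at 1.11 (SE 0.36, edgeR adjusted p = 0.0458). Usp2, a deubiquitinase whose transcript is rhythmic in most tissues, did not pass (1.26, SE 0.50, edgeR adjusted p = 0.0877), although each of its nitrate libraries was above each Hypoxia library. After background subtraction 1 of 11 further core genes, 0 of 15 kinases, ligases and cofactors, and 0 of 8 output genes passed in limma-voom (1, 5 and 0 were higher and 0, 1 and 0 lower at an unadjusted p under 0.05).

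**Figure D5:**
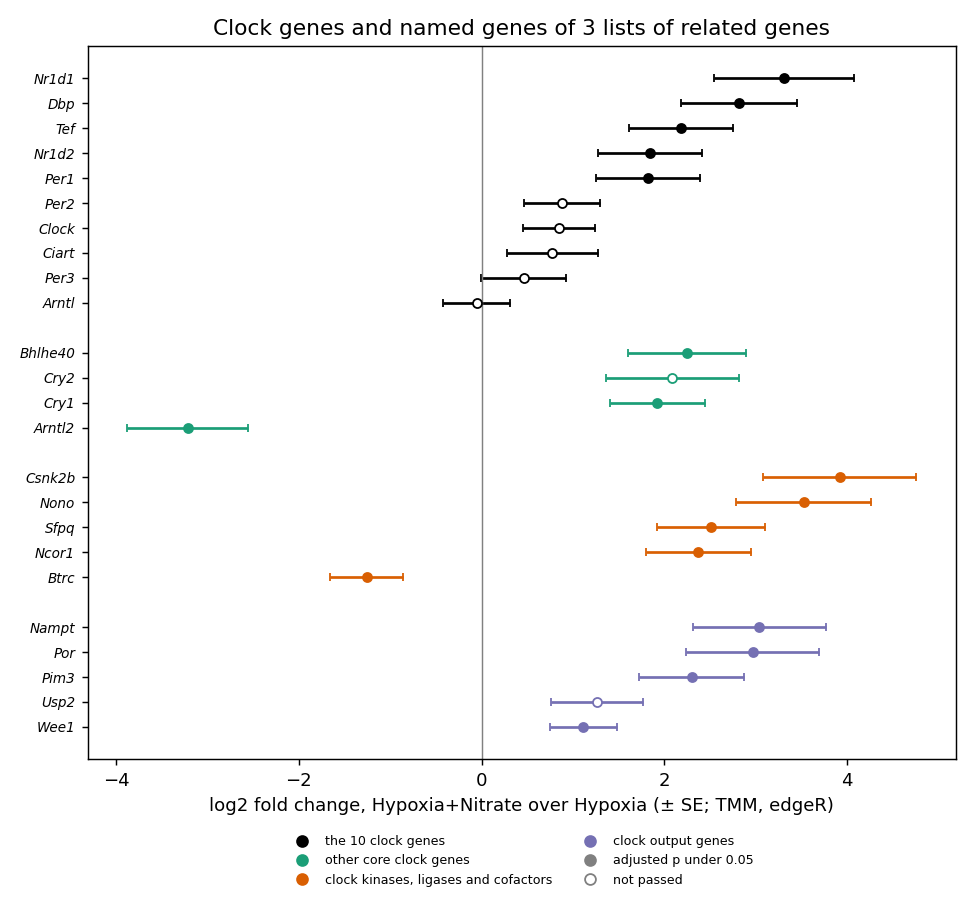
Log2 fold change of Hypoxia+Nitrate over Hypoxia with its SE (TMM, edgeR) for the 10 clock genes and the genes of the 3 related lists that the text names; filled points passed an adjusted p of 0.05. Arntl2 and Btrc are the filled points below 0, and Csnk2b, at 3.92, is the highest.

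Many genes followed the level of Dbp over the 8 libraries. By Pearson's r of log2 CPM over 8 libraries among 19318 genes, the closest were Narf (0.995), Bin1 (0.995), Rhog (0.994), Abl1 (0.994) and Tomm6 (0.994), and 2690 genes had r above 0.9. Among the members, r with Dbp was 0.946 for Nr1d1, 0.942 for Tef, 0.926 for Nr1d2, 0.918 for Clock, 0.86 for Per1, 0.77 for Per2, 0.071 for Per3, 0.012 for Ciart and −0.384 for Arntl. These points share the group difference, the background and the scaling factor of each library, and the values are a description.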

How the data were processed

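RNA sequencing of small intestine gave 8 libraries, 4 per group, grouped by sample title. The authors deposited read counts as whole numbers, in a joint table whose columns were identical to the 8 sample tables. The submitters' processing notes list HISAT, featureCounts 1.5.0-p3 and DESeq 1.8.3 on GRCm38, and per the labels' protocols the kit was strand-specific. The sources used here do not give the annotation or strand setting, so values of overlapping genes are uncertain. Of 55421 gene IDs 55240 matched GENCODE M21.

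Counts were tested in R 4.3.3 with edgeR 4.0.16: filterByExpr (minimum count 10, minimum total 15), TMM, quasi-likelihood test, and Benjamini-Hochberg adjustment over the 35431 genes tested. SEs came from the fold change and its F statistic. limma 3.58.1 and DESeq2 1.42.0 served as alternatives. Background was the count per kb in 1470 autosomal receptor genes, multiplied by a gene's exonic length free of other genes (0.5 of it on X and Y). Depth limits precision: Hypoxia counts of the members were 43 to 831. Every member is named, along with up to 5 genes of lowest p per further list, and the 5 genes closest to Dbp (minimum mean log2 CPM 1). Some genes that this rule names are not reported here, though list counts include them. Scripts were tested on simulated data. The members, lists and tests were chosen with earlier results of these data known.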

Additional observations from a re-analysis of the deposited data

How the results depend on the processing

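Over 21 alternatives Dbp was called higher in 17, Nr1d1 in 15, Tef in 11, and Nr1d2 and Per1 in 6 each. Per2 and Ciart were called in 1 each, and Per3, Arntl and Clock in 0. The log2 fold change of Dbp, Tef, Nr1d1 and Per1 kept its sign in all 21. The number of members called higher, 5, became 3 with RLE size factors, upper-quartile factors, nuclear protein-coding genes alone, or without Hypoxia+Nitrate 1 and 4. It was 1 after background subtraction, and 0 with library size alone, with the background covariate, or without Hypoxia 1 and 2 (5 at an unadjusted p under 0.05 in that edgeR fit). Leaving out each library gave 0 (without Hypoxia 1, edgeR, where 5 had an unadjusted p under 0.05) to 6 members (without Hypoxia+Nitrate 2). Over all genes, 676 of 34746 were higher without Hypoxia 1 and 5974 of 41753 without Hypoxia+Nitrate 2.

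The number of genes called, 8653, was 1800 with library size alone, 16708 with no filter, 14689 with DESeq2, 15818 with limma-voom, 4227 without Hypoxia 1 and 2, 2020 after background subtraction and 292 with the background covariate, and 1932 (without Hypoxia 1) to 22454 (without Hypoxia+Nitrate 2) with a library left out. Calls among the further core genes, the kinases, ligases and cofactors, and the output genes (4, 9 and 4) were 0, 0 and 0 with library size alone, 0, 1 and 0 without Hypoxia 1 and 2, 1, 0 and 0 after background subtraction, and 2, 0 and 0 with the background covariate. Leaving out each library gave 1 to 8, 0 to 10 and 0 to 6, lowest without Hypoxia 1 (for the core genes also without Hypoxia 3 or Hypoxia+Nitrate 4), and highest without Hypoxia+Nitrate 2 for the first and second list and without Hypoxia+Nitrate 3 for the output genes. The causes of these shifts were not tested.

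Signs changed for 6 members, of which Nr1d2 alone had been called. With library size alone the log2 fold change was −0.20 for Per2, −0.070 for Per3 and −0.23 for Clock, and after background subtraction −0.55 for Per3 and −0.58 for Ciart. Nr1d2 was at −0.13 with the background covariate. Arntl was at 0.10 with no filter, −0.15 to 0.24 with a library left out (0.24 without Hypoxia 4 and 0.06 without Hypoxia+Nitrate 1), 0.23 without Hypoxia+Nitrate 1 and 4, and 0.26 with the covariate.

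With the replicate number as a block in edgeR, 4791 of 35431 genes were called, 2176 higher and 2615 lower. Called higher were 2 members (Dbp and Nr1d1), 5 kinases, ligases and cofactors, and 1 output gene. Of the further core genes 1 was called, and it was lower. The deviations of same-numbered samples from their group means had correlations of 0.051, −0.182, 0.184 and −0.05. Hypoxia 1 and 3 matched their own number best, and Hypoxia 2 and 4 did not. So few values cannot decide whether same-numbered samples share more than a number.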
